A study of Rattus norvegicus and Heterocephalus glaber with 6 samples.

Results

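The proteasome genes in these liver profiles were all rows of the 6 deposited tables whose symbol begins with Psm, a letter from a to g and a digit, in either case. There were 46 such symbols among 22696 in all: 46 of the 22549 rows of each rat table and 3 of the 734 rows of each naked mole rat table, PSMA4, PSMB5 and PSMC4. The samples were livers of rats and of naked mole rats, burrowing rodents known for surviving in low oxygen, each kept at 8% oxygen for 8 hours, with 3 polyadenylated RNA libraries per species. The labels give no age, strain or sex, and do not say that the replicates came from different animals, so the p-values measure only the spread between these samples. Normoxia samples were not analysed here, so the values describe low-oxygen livers and no effect of oxygen was tested.

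The proteasome is the barrel-shaped protease that destroys proteins tagged with ubiquitin. Its 20S core stacks rings of alpha subunits (Psma genes), which form the gate, on rings of beta subunits (Psmb genes), of which Psmb5, Psmb6 and Psmb7 encode the constitutive catalytic sites. The 19S cap of ATPases (Psmc genes) and other subunits (Psmd genes) binds, unfolds and deubiquitinates substrates. Interferon-gamma induces the immunoproteasome subunits Psmb8, Psmb9 and Psmb10, which replace Psmb5, Psmb6 and Psmb7 in turn in newly built cores and favour peptides suited to presentation on MHC class I. In liver the immunoproteasome is known from immune cells and from inflamed hepatocytes.

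By role the 46 rat rows were 8 of the 20S alpha ring, 8 of the constitutive 20S beta ring (with Psmb11, the beta subunit of thymus), 3 immuno beta subunits, 19 of the 19S cap, 4 activators (Psme genes) and 3 assembly chaperones (Psmg genes). The last, Psmc3ip, matches the naming pattern but encodes a partner of Psmc3 known from meiotic recombination, not a subunit. Psma8, Psmd10, Psmf1 and Psmg3 were not analysed here.

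The promoters of the 3 immuno subunits and of their constitutive counterparts are where interferon-driven and housekeeping regulation of the catalytic sites is known to act, so 4 of the 6, those with a match to an interferon motif (immuno) or an antioxidant response element (constitutive), are printed from RefSeq for rat (build GRCr8, 250 bases before to 50 after the gene's start). In Psmb8 (chr20:4656982-4657281, minus strand) and Psmb10 (chr19:50743243-50743542, minus strand) capitals mark matches to an interferon-stimulated response element (TTTC, any 2 bases, then TTTC) or a gamma-activated site (TTCNNNGAA), and in Psmb5 (chr15:32047330-32047629, minus strand) and Psmb6 (chr10:55737638-55737937, plus strand) matches to an antioxidant response element (TGACNNNGC).
Psmb8: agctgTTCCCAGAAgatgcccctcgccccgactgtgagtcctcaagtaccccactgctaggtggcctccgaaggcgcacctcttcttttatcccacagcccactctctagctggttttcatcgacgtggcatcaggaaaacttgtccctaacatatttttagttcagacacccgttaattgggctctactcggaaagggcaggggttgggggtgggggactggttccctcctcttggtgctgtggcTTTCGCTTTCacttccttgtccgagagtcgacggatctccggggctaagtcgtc
Psmb10: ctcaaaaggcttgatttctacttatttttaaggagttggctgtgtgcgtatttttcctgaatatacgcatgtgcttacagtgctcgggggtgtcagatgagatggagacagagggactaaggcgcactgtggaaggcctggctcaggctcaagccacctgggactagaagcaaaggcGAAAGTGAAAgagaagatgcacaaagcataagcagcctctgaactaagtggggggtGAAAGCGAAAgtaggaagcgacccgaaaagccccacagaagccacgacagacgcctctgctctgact
Psmb5: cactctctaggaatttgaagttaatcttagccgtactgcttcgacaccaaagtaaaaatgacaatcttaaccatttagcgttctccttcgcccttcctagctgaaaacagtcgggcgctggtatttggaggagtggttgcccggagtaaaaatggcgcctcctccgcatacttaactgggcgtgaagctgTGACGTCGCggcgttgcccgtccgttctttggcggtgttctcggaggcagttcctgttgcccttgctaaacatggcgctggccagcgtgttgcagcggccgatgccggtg
Psmb6: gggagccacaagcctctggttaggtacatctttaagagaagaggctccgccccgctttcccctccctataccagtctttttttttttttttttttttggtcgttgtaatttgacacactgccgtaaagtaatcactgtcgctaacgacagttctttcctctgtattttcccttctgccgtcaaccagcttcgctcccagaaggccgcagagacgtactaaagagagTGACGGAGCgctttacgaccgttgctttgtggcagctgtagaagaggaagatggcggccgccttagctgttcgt

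Both strands were searched for 5 motifs, and no matches overlap each other in these 4 windows. A window was found for 39 of the 45 symbols other than Psmc3ip, the others being Psma3l, Psma7, Psmb11, Psmd6, Psmd12 and Psmd14. The interferon-stimulated response element was in 7 of these 39 windows (17.9%) and in 3.92% of all 33469 rat windows, and the 7 were Psma4, Psmb3, Psmb8, Psmb10, Psmd7, Psme2 and Psmg4. Of these, 2 belong to immuno subunits, with 1 match in Psmb8 and 2 in Psmb10. TTCNNNGAA was in 4 of 39 (10.3%, against 8.87% of all windows), among them Psmb8. TGACNNNGC was in 8 of 39 (20.5%, against 12.1%), namely Psma3, Psmb2, Psmb5, Psmb6, Psmd1, Psmd3, Psmd9 and Psme4. The GC box GGGCGG was in 28 of 39 (71.8%, against 33.1%), and the CCAAT box in 18 (46.2%, against 37.5%). The Psmb9 window held neither interferon motif, which says only that these letters are not in it. A match is a description of the letters and not a site of binding.

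FPKM is the number of fragments per kilobase of transcript at a fixed total of mapped fragments, so levels of different genes can be compared within a library. FPKM summed to between 527133 and 557187 in the rat libraries and between 17543 and 21793 in the naked mole rat libraries, whose tables hold fewer rows; no read counts were given, and the depth of the libraries is unknown. All proteasome rows had the status OK. They made up 0.367% of the FPKM total in rat 1, 0.366% in rat 2 and 0.389% in rat 3. Of the 46 rat members 45 reached a mean of 1 FPKM, against 44.3% of all rat rows, and 40 reached 10 FPKM, against 17.3%. Psme1, Psmb7, Psmb4 and Psma7 exceeded 100 FPKM, 4 of 46 against 2.94% of all rat rows. Among rat rows of at least 1 FPKM the shares were 39.1% above 10 and 6.63% above 100. The member below 1 FPKM was Psmb11, at 0.0205, 0 and 0.0202 FPKM in rats 1, 2 and 3.

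The alpha ring spanned a wide range of transcript levels, with a median of 37.4 FPKM over its 8 rows. Psma7 was the highest of them at 110.9, 100.1 and 122.2 FPKM in rats 1 to 3 (111 ± 11.1, SD, n = 3), and Psma6 followed at 76.5, 81.2 and 78.2. Psma4, Psma2, Psma5 and Psma1 lay between 47.2 ± 2.60 and 29.0 ± 2.08. Psma3 was the lowest at 4.66 ± 0.4998, but a second row, Psma3l, covers 94.5% of its span and stood at 28.8 ± 1.23, and RefSeq's GRCr8 table lists Psma3l as another name of Psma3. Fragments of the gene can therefore be divided between these rows, whose sum was 32.7, 34.3 and 33.4. With that sum in place of the 2 rows, the alpha median was 45.6.

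The constitutive beta ring was higher, with a median of 85.3 FPKM over 8 rows, or 92.5 without the barely detected Psmb11. Psmb7, the trypsin-like catalytic subunit, stood at 119.6, 121.2 and 126.6 FPKM, the second highest of all members, and Psmb4, a structural subunit, at 113.1, 104.7 and 121.4. Psmb5, the chymotrypsin-like catalytic subunit, was at 92.7, 94.4 and 103.8, while Psmb6, the caspase-like one, was lower in every rat at 48.9, 54.0 and 55.4. The structural subunits Psmb1 and Psmb2 were at 92.5 ± 12.1 and 78.2 ± 9.15, and Psmb3 was the lowest of the 7 detected at 38.9 ± 4.02 (SD, n = 3 each). RefSeq lists 7 pseudogenes and 3 like-named genes of Psmb3, so its reads can be split among copies. In all, 19 of the 46 symbols have such copies of their name, with 46 pseudogenes among them, and the values of these genes are uncertain in this respect.

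The 19S cap had a median of 33.9 FPKM over 19 genes and was led by its ATPases, which unfold substrates. Psmc3 was at 76.1, 78.3 and 86.9 FPKM, Psmc5 at 75.1, 72.3 and 81.5, and Psmc1 at 67.1, 71.9 and 70.1. Psmc4 and Psmc2 followed at 54.0 ± 4.36 and 53.4 ± 2.88, but Psmc6, the remaining ATPase, stood at only 10.3 ± 0.941 (SD, n = 3 each). The 6 ATPases, which occupy one ring in equal numbers, thus ranged from 10.3 to 80.4 in mean transcript level. RefSeq lists 2 pseudogenes of Psmc6, but also 3 of the higher Psmc4, and none of the other ATPases.

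Of the other cap subunits, the ubiquitin receptor Psmd4 was at 53.4 ± 2.51 FPKM and the scaffold subunits Psmd2 and Psmd1 at 37.8 ± 1.46 and 22.0 ± 2.65 (SD, n = 3 each). The 8 lid subunits ran from 54.8 ± 2.94 for Psmd8 through Psmd3 (38.6 ± 2.74), Psmd7 (33.9 ± 2.38), Psmd13 (33.2 ± 1.80), Psmd6, Psmd12 (25.6 ± 2.08) and Psmd11 (15.2 ± 0.506) to 11.3 ± 0.677 for Psmd14. Psmd14, the deubiquitinase that removes the ubiquitin chain, was at 10.7, 12.1 and 11.2 in the 3 rats and so among the lowest of the cap. Psmd6 varied least of all members, at 27.4, 28.0 and 28.1. The cap's assembly chaperones Psmd9 and Psmd5 stood at 20.1 ± 2.13 and 6.88 ± 0.708.

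**Figure D1:**
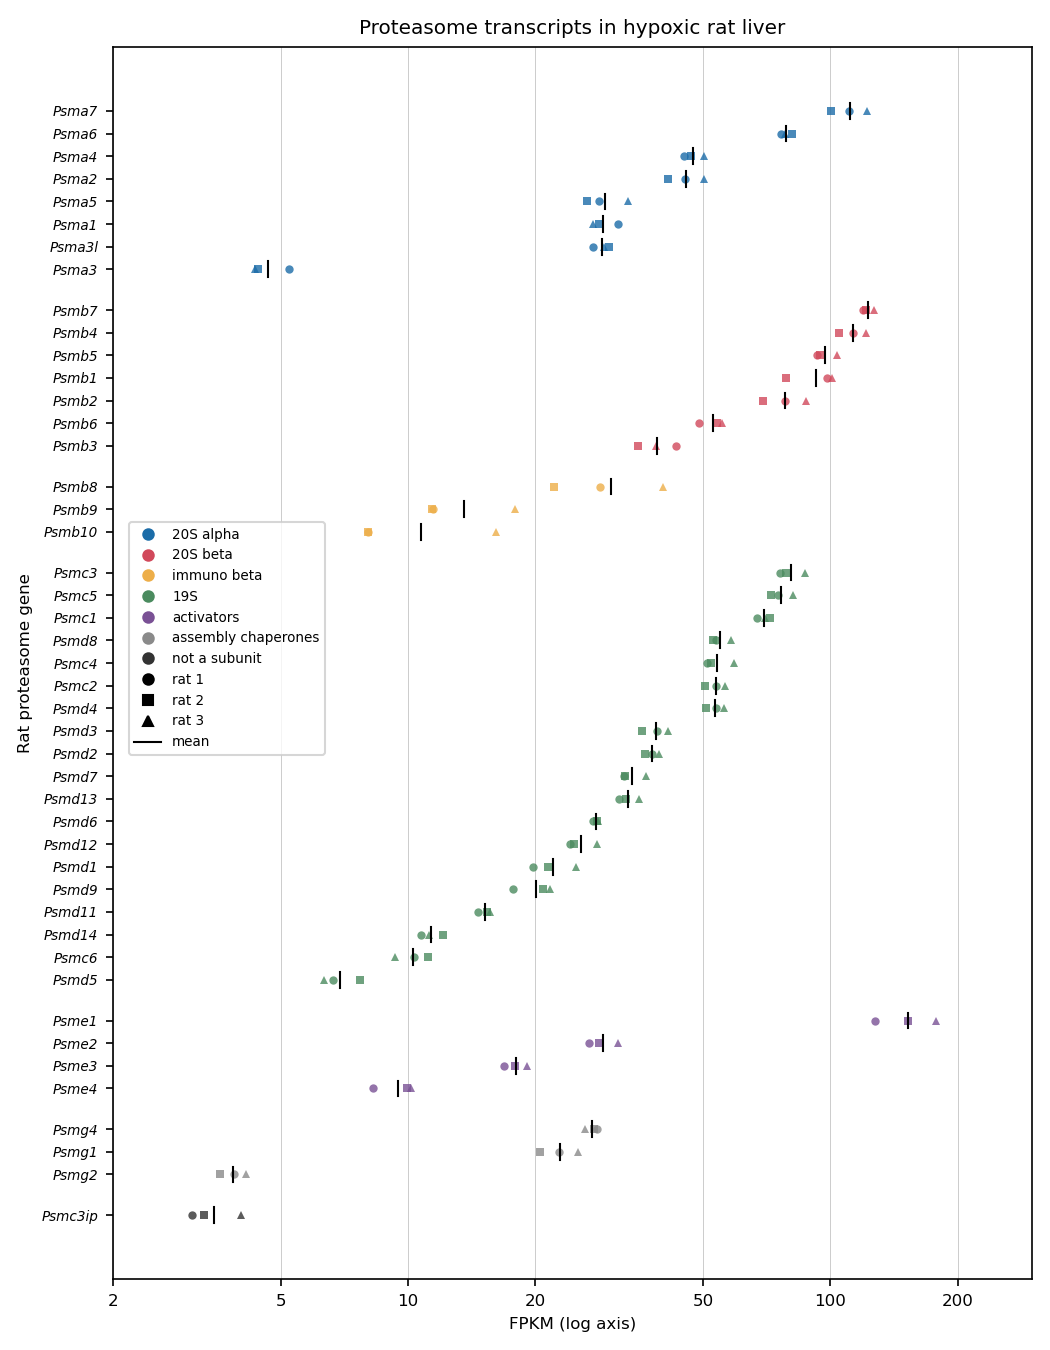
FPKM (log axis) of 45 rat proteasome genes in the 3 hypoxic rat livers, with 1 row per gene, coloured by group, with points for the rats and a bar at the mean; Psmb11, at or near 0, is left out. Psme1 and Psmb7 lie highest, and in the yellow immuno beta rows rat 3 (triangles) is the highest point. Rats 1 and 2 lie together for Psmb9 and Psmb10 but not for Psmb8.

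Among the activators, which open the core's gate, Psme1 was the highest of all members at 127.4, 152.5 and 177.6 FPKM in rats 1, 2 and 3. Its partner Psme2, with which it forms the interferon-inducible PA28 ring, stood at 26.8, 28.4 and 31.4. Psme1 was thus 4.76, 5.38 and 5.65 times Psme2, although both proteins enter the same ring. RefSeq lists 2 pseudogenes and 1 like-named gene of Psme1 and 3 pseudogenes of Psme2, so the reads of both can be split among copies. Psme3, of the nuclear activator, and Psme4, which acts in sperm and DNA repair, were at 18.0 ± 1.12 and 9.45 ± 1.05. Of the chaperones that assemble the core, Psmg4 and Psmg1 were at 27.3 ± 0.930 and 22.8 ± 2.31 and Psmg2 at 3.86 ± 0.278 (SD, n = 3 each), and Psmc3ip stood at 3.46 ± 0.494.

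The deposited tables also give confidence bounds, and for many members the FPKM lay above the midpoint of its own bounds. Over the 3 rats the FPKM was 1.19 to 1.23 times the midpoint of the bounds for the 7 detected constitutive beta subunits, 1.02 to 1.13 times for the cap and 1.35 times for Psmg4. The median over all rat rows of at least 1 FPKM was 1.02. With the midpoints in place of FPKM, the median of the beta ring was 2.19 times that of the cap, against 2.52 times with FPKM. The order of the groups' medians from beta to alpha to cap was the same with both. With the midpoints, however, alpha and cap lay close, at 32.7 against 31.7 FPKM.

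The immunoproteasome subunits were present at lower levels than their constitutive counterparts in each of the 3 rats. Psmb8 stood at 28.5, 22.2 and 40.1 FPKM, Psmb9 at 11.5, 11.4 and 17.9, and Psmb10 at 8.03, 8.03 and 16.2. Rat 3 was the highest for all 3 genes, and the highest immuno value in any rat, 40.1 for Psmb8, lay below the lowest value of Psmb5, Psmb6 or Psmb7, 48.9. Psmb5 was 3.25, 4.26 and 2.59 times Psmb8, Psmb6 was 4.27, 4.75 and 3.10 times Psmb9, and Psmb7 was 14.9, 15.1 and 7.83 times Psmb10. The subunits that enter the immunoproteasome together were therefore not at equal transcript levels, Psmb10 being the lowest relative to its counterpart.

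Summed over the 3 pairs, the immuno subunits made up 15.5%, 13.4% and 20.6% of the catalytic beta transcripts in rats 1, 2 and 3 (16.5 ± 3.71%, SD, n = 3). By pair the share was 23.5 ± 4.43% for Psmb8, 20.2 ± 3.66% for Psmb9 and 7.95 ± 2.93% for Psmb10. RefSeq lists 2 pseudogenes and 1 like-named gene of Psmb6 and 2 pseudogenes of Psmb7. It lists none of Psmb5 or of the immuno subunits. Reads of Psmb6 and Psmb7 can thus be split among copies, and their ratios and shares are uncertain in this respect. No test was made within this single group, since 3 paired values cannot pass an exact test at the usual threshold. In bulk liver, a smaller number of cells that use the immunoproteasome cannot be told apart from less of its RNA per cell.

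**Figure D2:**
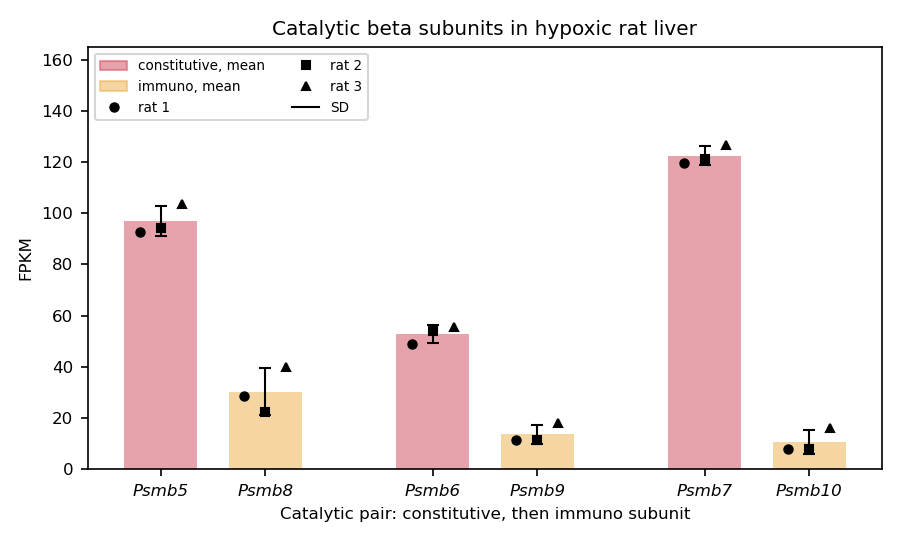
FPKM of each constitutive catalytic subunit (red) beside the immuno subunit that replaces it (yellow) in 3 hypoxic rat livers; bars are means, error bars SD and points single rats. Each immuno bar is lower than its partner, by most for Psmb10 against Psmb7, and rat 3 is the highest point in all 6 bars.

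Among the members of at least 1 FPKM, the immuno subunits were also those that differed most between rats. Rat 3 was singled out for description after these values were seen. Rat 3 stood at 1.58 times the mean of rats 1 and 2 for Psmb8, 1.57 times for Psmb9 and 2.01 times for Psmb10. Those were the only 3 of the 45 members of at least 1 FPKM at 1.5 times or more, a level reached by 3.67% of all rat rows of at least 1 FPKM. Their coefficients of variation over the rats were 30.04%, 27.5% and 43.8%, against 1.37% to 16.5% for the 41 other subunits, activators and chaperones of at least 1 FPKM, with a median of 7.09% for those 41 and of 11.5% for all rat rows of at least 1 FPKM.

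Outside the immuno subunits the proteasome was slightly higher in rat 3 as well. Of the 41 genes, rat 3 was the highest for 31, rat 2 for 6 and rat 1 for 4, whereas over all rat rows of at least 1 FPKM rat 3 was the highest for 33.5%, rat 2 for 49% and rat 1 for 17.5%. The median of rat 3 over rats 1 and 2 was 1.10 for these genes and 1.003 for all rat rows of at least 1 FPKM. The cap showed it in 15 of 19 genes, the alpha ring in 4 of 8 and the activators in 4 of 4. Psme1, whose values 127.4, 152.5 and 177.6 do not place rats 1 and 2 together, had a coefficient of variation of 16.5%, the highest of the 41. On log2(FPKM + 1), 30 of the 45 members had a smaller SD between rats than the median of all rat rows of at least 1 FPKM (0.137). The 41 genes had a median level of 37.8 FPKM, against 6.74 for all such rows. Neither this SD nor the coefficient of variation was compared with rows of like level.

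**Figure D3:**
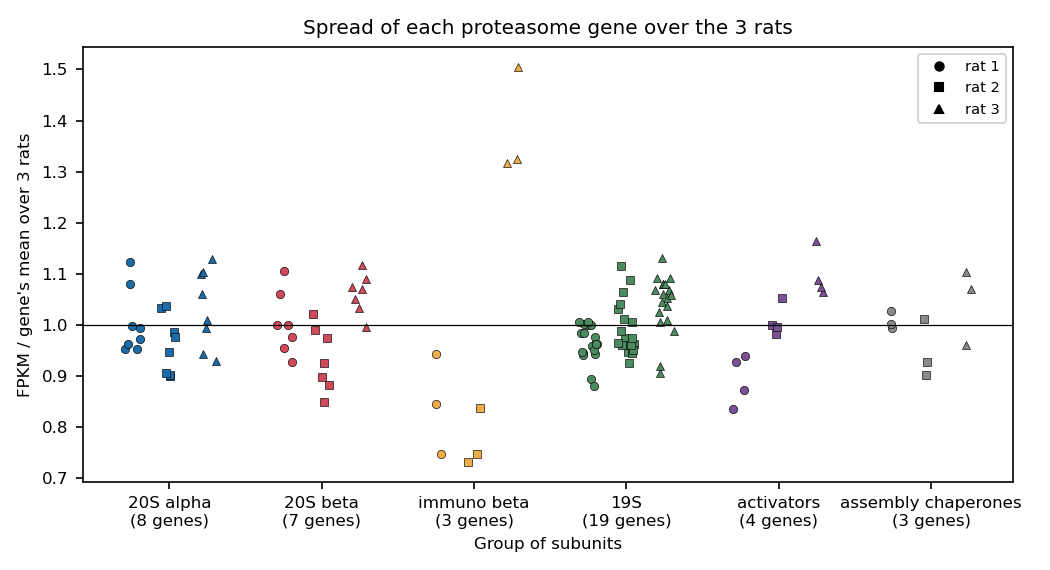
Each proteasome gene's FPKM divided by its mean over the 3 rats, by group of subunits, with circles for rat 1, squares for rat 2 and triangles for rat 3; Psmb11 and Psmc3ip are left out. The 3 immuno subunits lie far above 1 in rat 3, where the other groups stay close to 1.

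The summed markers of each immune cell list were highest in rat 3 and lowest in rat 1. Psmb8, also highest in rat 3, was lowest in rat 2. Psmb9 and Psmb10, highest in rat 3 too, were about equal in rats 1 and 2. Single markers did not all follow the order of their list's sum. Of 7 macrophage or Kupffer cell markers 6 were in the rat tables, summing to 105.3, 118.2 and 149.9 FPKM in rats 1, 2 and 3. The 5 of at least 1 FPKM were each highest in rat 3, as were 33.5% of all rat rows of at least 1 FPKM. Cd68 was at 17.1, 17.6 and 24.7, Clec4f at 61.2, 71.2 and 81.1 and Cd163 at 10.2, 10.4 and 15.5. Csf1r was at 8.78, 9.50 and 13.6 and Vsig4 at 7.98, 9.50 and 15.0. Marco was at 0, on sequence outside the assembled chromosomes. The 4 general leukocyte markers summed to 12.4, 13.9 and 17.2 and were each highest in rat 3. Ptprc, the leukocyte surface phosphatase among them, was at 1.84, 2.37 and 2.96. The 8 T or NK cell markers summed to 9.76, 11.8 and 16.6, most of it Cd4, which rat macrophages also express, with 6.14, 8.30 and 11.96. The CD3 subunits of the T cell receptor were below 1 FPKM and highest in rat 2. Cd3e was at 0.292, 0.428 and 0.403, Cd3g at 0.112, 0.704 and 0.332 and Cd3d at 0.101, 0.106 and 0.1002. The rest of this list, Cd8a, Nkg7, Gzmb and Prf1, was also low, but highest in rat 3 and lowest in rat 2. Cd8a was at 0.780, 0.688 and 0.929 and Nkg7 at 0.638, 0.585 and 0.865. Gzmb was at 0.196, 0.0823 and 0.270 and Prf1 at 1.49, 0.858 and 1.75. The 4 B cell markers summed to 0.925, 1.99 and 2.44 and the 4 neutrophil markers to 2.39, 8.00 and 10.7, although Cd79b among the former and S100a8 among the latter were highest in rat 2. None of these lists other than the macrophage markers held a marker at 0 in all rats. The part of these cells in the level of the immuno subunits was not tested.

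Markers of other liver cells varied in other ways. The 4 sinusoidal endothelial markers present summed to 56.8, 51.5 and 49.1 FPKM, lowest in rat 3, and the 5 hepatocyte markers present to 12409, 14896 and 12973, most of it Ttr. Of those 5, Ttr and Cps1 were highest in rat 2, Hnf4a in rat 1 and Asgr1 and Tat in rat 3. Tat, at 1023, 429.4 and 1220.5, stood in rat 3 at 1.68 times the mean of the others. The 5 stellate markers summed to 10.3, 8.86 and 13.4, highest in rat 3. Of the 4 stellate markers of at least 1 FPKM, 2 were highest there, against 33.5% of all such rat rows.

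The genes around the immuno subunits and upstream of them did not all show the rat 3 pattern. Psmb8 and Psmb9 sit in the MHC on chromosome 20, from 4786259 to 4789223 and from 4801186 to 4806608 as deposited (the build is not given in the sources used here), next to the peptide transporter genes Tap2 and Tap1. Psmb10 lies elsewhere, on chromosome 19 from 35777709 to 35780194. Tap2 stood at 7.05, 8.76 and 11.1 FPKM in rats 1, 2 and 3 and Tap1, whose row ends 456 bases before that of Psmb9 begins and which RefSeq places on the opposite strand, at 6.18, 4.54 and 5.96. Tap2 was thus highest in rat 3 and Tap1 was not.

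Of the 16 listed genes of antigen processing and interferon signalling, 15 were in the rat tables and 13 reached 1 FPKM. Of these 13, 7 were highest in rat 3, against 33.5% of all rat rows of at least 1 FPKM. Irf1, a factor that acts on immunoproteasome promoters, was at 5.27, 6.90 and 7.81 FPKM. B2m, the MHC class I light chain, was abundant and highest in rat 2, at 2514.5, 2985.6 and 2612.2. Tapbp, which loads peptides onto MHC class I, was at 11.6, 11.97 and 16.6. Ifng, the cytokine itself, was listed at 0 in all 3 rats and, as IFNG, in all 3 naked mole rats.

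Of the 23 listed partners of the proteasome outside the naming pattern, 21 were in the rat tables and all 21 reached 1 FPKM, 17 of them 10 FPKM. Adrm1 and Shfm1, the 2 cap subunits that carry other names, were at 73.9 ± 6.81 and 113 ± 7.51 FPKM. Pomp, the chaperone of beta ring assembly, stood at 97.7 ± 5.20, above each of the Psmg chaperones. The deubiquitinases that dock on the cap, Usp14 and Uchl5, were lower at 4.38 ± 0.511 and 4.09 ± 0.118. Nfe2l1, the transcription factor known to raise proteasome genes when the protease is impaired, and Ddi2, the protease that activates it, were at 14.6 ± 1.83 and 28.6 ± 1.08. Vcp, the segregase that delivers substrates, was at 91.7 ± 4.10, and the polyubiquitin gene Ubb at 609 ± 86.5 (SD, n = 3 each). In this list 9 of 21 genes were highest in rat 3, against 33.5% of all rat rows of at least 1 FPKM. None of the list had a row in the naked mole rat tables.

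The comparison the design allows between the species covers PSMB5, PSMA4 and PSMC4, each with 1 row in each species. In naked mole rat PSMC4 stood at 182.8, 234.9 and 312.5 FPKM, PSMA4 at 8.600, 7.09 and 8.70 and PSMB5 at 0.798, 1.01 and 1.001. In rat the same genes were at 51.0, 52.0 and 59.0, at 45.0, 46.6 and 50.1 and at 92.7, 94.4 and 103.8. The species' libraries did not overlap for any of them, PSMC4 standing above rat and the others below it. Non-overlap was found for 89.6% of the 288 symbols tested.

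After each library was scaled by its median ratio to the mean profile of symbols found in both species, PSMB5 was 45.6-fold higher in rat (scaled FPKM 90.4 ± 8.32 against 1.002 ± 0.164, SD, n = 3 each), a log2 difference, naked mole rat minus rat, of -5.51 ± 0.12 (SE, limma adjusted p = 7.49e-09). PSMA4 was 4.67-fold higher in rat (44.0 ± 3.55 against 8.64 ± 0.591), a log2 difference of -2.22 ± 0.11 (SE, limma adjusted p = 5.56e-07). PSMC4 was 4.97-fold higher in naked mole rat (259.8 ± 69.9 against 50.3 ± 5.29), a log2 difference of 2.31 ± 0.22 (SE, limma adjusted p = 3.02e-05). The 1 added to each scaled value before the logarithm makes the fold of PSMB5, which is low in naked mole rat, smaller than the ratio of its means. Over the 17 alternatives the fold ran from 15.9 to 82.5 for PSMB5, from 2.55 to 5.93 for PSMA4 and from 3.88 to 10.9 for PSMC4, each called in the same direction in all 17.

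All 3 subunits were called, but 73.6% of the 288 tested symbols were called as well, 41% of the 288 toward rat and 32.6% toward naked mole rat, so 3 of 3 is near the background. The median log2 difference of all tested symbols was -0.40, and scaling each library to the same sum over shared symbols moved it to 0.77, with 169 symbols called toward naked mole rat and 108 toward rat in place of 94 and 118.

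The ratios between subunits within a library do not depend on the scaling. In rat PSMC4 was 0.550, 0.551 and 0.568 times PSMB5, and in naked mole rat 229.1, 232.4 and 312.2 times. PSMA4 was 0.486, 0.494 and 0.483 times PSMB5 in rat, and 10.8, 7.01 and 8.69 times in naked mole rat. PSMC4 over PSMA4 ran from 1.11 to 1.18 over the rat libraries and from 21.3 to 35.9 over those of naked mole rat. With 3 libraries against 3, an exact permutation test of such a ratio cannot pass the usual threshold, and none is given.

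The naked mole rat rows span far more of the genome than the rat genes. PSMC4 lay on scaffold346 from 11865 to 1526216 in naked mole rat (1514351 bp) and on chromosome 1 from 83151148 to 83159464 in rat (8316 bp), a span 182 times as long. PSMA4 lay on scaffold430 from 61059 to 3506084 (3445025 bp) and on rat chromosome 8 from 58508642 to 58516103 (7461 bp), 462 times as long. PSMB5 lay on scaffold573 from 12117 to 495944 (483827 bp) and on rat chromosome 15 from 32689858 to 32694364 (4506 bp), 107 times as long. Of the 288 tested symbols, 176 had naked mole rat rows more than 2 times as long as in rat, and 74.4% of those were called, 34.7% toward rat and 39.8% toward naked mole rat. For these 3 subunits a difference between the animals cannot be told apart from one between the gene models of the tables.

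Other genes share the space of these long rows. The PSMA4 row overlaps that of ACSBG1, a fatty acid-CoA ligase, over 93.8% of its span, and in naked mole rat the 2 rows had nearly equal values, PSMA4 being 0.949, 0.982 and 1.11 times ACSBG1 (9.06, 7.22 and 7.84 FPKM). In rat, where the 2 genes lie 296157 bp apart, Psma4 was 125.5, 131.3 and 79.96 times Acsbg1. The row of FCGBP, an IgG Fc-binding protein, lies within that of PSMC4 and stood at 60.9, 73.9 and 84.2 in naked mole rat, against 0.0256, 0.0538 and 0.0189 for Fcgbp in rat, 17946 bp from Psmc4. Both FCGBP and PSMC4 were lowest in naked mole rat 1 and highest in naked mole rat 3. CYP1A1, whose row does not overlap theirs, had the same order (scaled FPKM 141.1, 212.5 and 247.2). The share of all naked mole rat rows with this order was not counted. MAPK7, a kinase on a short row within that of PSMB5, was listed at 0 in all 3 naked mole rats. The share of the PSMA4 and PSMC4 values that belongs to neighbouring genes was not tested.

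**Figure D4:**
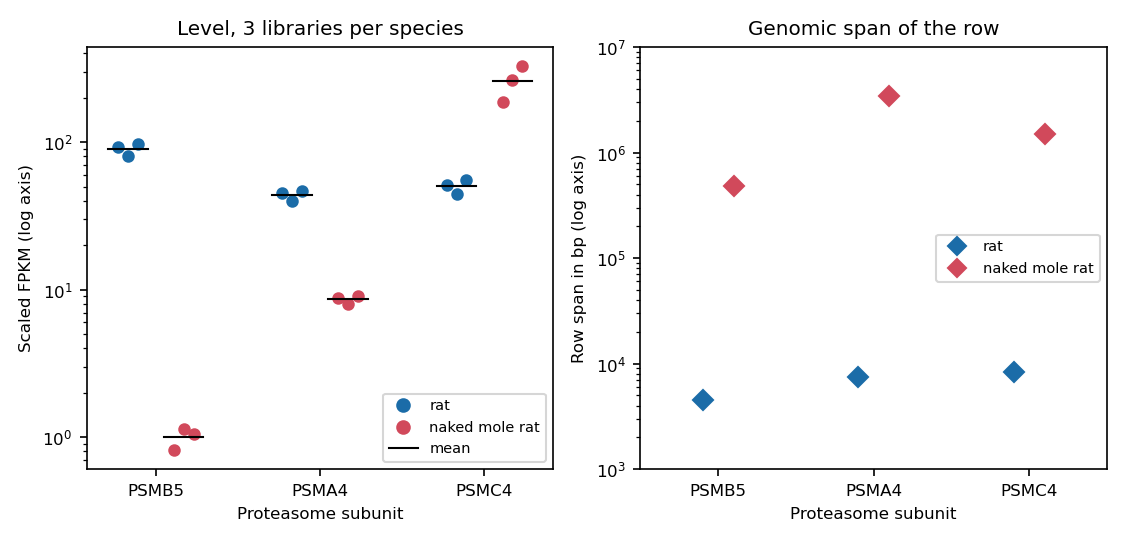
Left, scaled FPKM (log axis) of the 3 subunits measured in both species, with 3 libraries per species and a line at the mean; right, the genomic span of each row in bp (log axis). PSMB5 and PSMA4 lie higher in rat and PSMC4 higher in naked mole rat, and each naked mole rat row is over 100 times as long as its rat row.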

How the data were processed

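Per the file headers, each library has a gene table with an FPKM column made by the authors, confidence bounds in the same unit, a locus and a status. Tools listed in the submitters' processing notes are TopHat2 2.0.9, Bowtie2 2.1.0, Picard 1.137 and Cufflinks 2.1.1. For builds, annotations and depth, the sources used here give nothing. FPKM divides by the length of the gene model, so an inexact model changes the value. Rows with the status HIDATA were treated as missing, and loci are printed as deposited.

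Rat values were described as deposited, as mean ± SD over 3 libraries. For the species, rows of one symbol were summed, 388 shared symbols were scaled by the median ratio over those above 0 in all 6 libraries, and the 288 symbols that reached 1 scaled FPKM in 3 or more libraries entered limma 3.58.1 (R 4.3.3), which used the trend option and values of log2(scaled FPKM + 1). Calls required that the p adjusted by Benjamini-Hochberg lay below 0.05 and that the log2 difference was 1 or more in size. The limma step was run on simulated data in which fewer symbols differed than were called here. The simulation left out the scaling, so it does not check that step. Promoters and pseudogene counts came from RefSeq (GRCr8); all 46 symbols matched its gene table, Psma3l as a synonym.

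The members and lists were chosen with earlier results of these data known. All members are named, with the rows overlapping them in naked mole rat; from the lists of proteasome partners, of antigen processing and interferon genes and of cell markers, counts and examples are given. Alternatives were scaling, pseudocount, filter, symbols with several rows, trend, block, thresholds, the midpoint of the bounds and leaving out each library.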

Additional observations from a re-analysis of the deposited data

How the results depend on the processing

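PSMB5, PSMA4 and PSMC4 kept their direction and their call in each of the 17 alternatives, with log2 differences of -6.37 to -3.99, -2.57 to -1.35 and 1.96 to 3.44. Leaving out one library gave -5.64 to -5.45, -2.37 to -2.15 and 2.15 to 2.53. Dropping the filter or the trend, or adding the block, cannot change the size of these differences. None of the alternatives changes the long gene models of the naked mole rat rows. The number of symbols called higher in naked mole rat was 94, and 169 when libraries were scaled to the same sum over shared symbols, which also tests more symbols (358). Replicate numbers are shared between different species, and the main fit assumed no pairing. The deviations of same-numbered libraries had correlations of -0.036, -0.086 and -0.043, and those of differently numbered ones ran from -0.066 to 0.116. With 3 libraries per species, such correlations cannot show whether same-numbered libraries shared a batch. With the replicate block in limma the counts were 94 and 118 as without it. The limma adjusted p with the block was 4.32e-07 for PSMB5, 7.74e-06 for PSMA4 and 7.37e-05 for PSMC4. The share of immuno subunits in rat was 16.5%, and 14.4% to 18.1% without one rat, the lowest without rat 3. Midpoints of the bounds, used after seeing the data, gave a share of 17.3%. Rescaling each rat library to a fixed larger total without Alb raised the medians by construction, to 70.6 for alpha, 160.9 for beta, 25.6 for immuno, 63.9 for the cap, 44.2 for activators and 43.1 for assembly chaperones. With the midpoint of the bounds, chosen after seeing the data, the medians were 32.7 for alpha, 69.3 for beta and 20.2 for assembly chaperones; with Psma3 and Psma3l summed, also chosen then, the alpha median was 45.6. Unknown depth limits what the values at or near 0, such as Psmb11, can show.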
